A study of Mus musculus with 16 samples.

Results

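Solute carriers are the membrane proteins that move amino acids, metals, ions, vitamins, lipids and metabolites across the plasma membrane and the membranes of organelles. Described here are the 126 solute carrier genes that were well expressed in sorted cortical microglia, out of 330 protein-coding genes with an Slc symbol outside the glucose transporter family Slc2a. They were chosen by level alone, as a mean normalised read count of at least 500 over all 16 libraries. Of the other 204 genes, 36 were listed at 0 in every library. The members just inside the threshold were Slc25a16 at 536.2, Slc25a30 at 535.0 and Slc1a5 at 529.7. Just outside it were Slc16a10 at 499.0, Slc25a40 at 490.5 and Slc30a1 at 486.7. A total of 118 members reached 500 as a mean in each of the 4 groups, and 8 did not (Slc1a5, Slc39a12, Slc25a35, Slc25a16, Slc25a32, Slc25a30, Slc26a6 and Slc20a2). By known function or by family, the label held for all but 3 members: Slc7a6os, Slc9a3r1 and Slc4a1ap carry the symbol but are not carriers.

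The microglia came from the brain cortex of young C57BL/6J mice and were isolated by fluorescence-activated cell sorting. Males and females ate either control chow or chow with PLX3397, a small-molecule inhibitor of the CSF1 receptor, for 1 week, which gave 4 groups of 4 libraries. No transgene or deletion is named in any group, so all 4 share the C57BL/6J background, and the sorting gate, the dose and the ages in days are not given in the sources used here. The drug removes microglia, so the libraries of the PLX3397 groups hold only the cells that remained and were sorted, and the series asks whether males and females differ in this response. In bulk libraries such as these, fewer cells of a type and less RNA per cell cannot be told apart.

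Many carriers work in pairs or in a chain. Slc7a5, Slc7a6, Slc7a7 and Slc7a8 are light chains that reach the plasma membrane bound to the heavy chain Slc3a2, and they exchange 1 amino acid for another. In macrophages, Slc11a1 moves iron and manganese out of the phagosome, Slc40a1 is the only known iron exporter of the cell, and carriers of the endosome and lysosome (Slc15a3, Slc15a4, Slc29a3) return the products of digestion to the cytosol. Zinc enters the cytosol through the Slc39 family and leaves it through the Slc30 family, while most of the Slc25 family serves the inner mitochondrial membrane.

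Totals of the deposited normalised read counts ranged from 32641505 to 44162201 per library. They were 38970000, 32640000, 35070000 and 39580000 in males on PLX3397, below every female PLX3397 library (41570000 to 42270000). Controls had 39480000 to 41600000 in males and 38410000 to 44160000 in females. The total thus went partly with the group, which bears on the scalings compared below. The summed level of 5 microglial markers (P2ry12, Tmem119, Cx3cr1, Sall1, Csf1r) was 1331000 to 1437000 in male controls, 536400 to 751200 in males on PLX3397, 1262000 to 1543000 in female controls and 837000 to 993900 in females on PLX3397, so the labelled cell type was present in every library. Male PLX3397 libraries also held more of 6 neutrophil markers, with sums of 6606 to 44460 against 234.6 to 1807 in male controls, 0 to 6.01 in female controls and 424.8 to 1651 in females on PLX3397. The highest sum came from male PLX3397 replicate 3. Male control replicate 4 had an Xist level of 515.7, against 14.72 to 31.4 in the other male libraries and 5542 to 10450 in female libraries. Calls that ended without these 2 libraries are given with their values. The sum of 6 markers of border-associated macrophages ran from 1818 to 2843 in male controls, from 506.4 to 742.9 in males on PLX3397, from 1441 to 3375 in female controls and from 778.4 to 1061 in females on PLX3397. The sum of 5 endothelial markers ran from 966.9 to 1704 in male controls, from 406.7 to 570.5 in males on PLX3397, from 1328 to 1462 in female controls and from 522 to 823.3 in females on PLX3397. Most of this sum was Pecam1, at means of 1160 and 399.7 in males and 1384 and 621.6 in females on control chow and PLX3397. In males the means of Flt1 (48.45 and 66.44) and Cdh5 (15.71 and 21.43) went the other way, without a call. Of the 5 markers, Cldn5 was listed at 0 in both control groups and in males on PLX3397.

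Promoters of Slc3a2 and its light chains Slc7a8 and Slc7a7, which were lower together in males, are shown with that of Slc33a1, a member called lower in males whose promoter holds an E-box. RefSeq promoters of build GRCm38.p6, each running from 250 bases before the gene's start to 50 after it, matched 93 of the 126 members by symbol, and 280 bases of each are printed here, up to 30 after the start. Capitals mark the motif TGATGNAA in Slc7a7 and the motif CACGTG in Slc33a1, and no capitals mean that none of the 3 motifs searched was found in these letters. All 4 lie on the minus strand: Slc3a2 at chr19:8713868-8714147, Slc7a8 at chr14:54781857-54782136, Slc7a7 at chr14:54417915-54418194 and Slc33a1 at chr3:63964704-63964983. Of 5 starts listed for Slc7a7, the start shown was picked because it held the most motif matches. Its 2 marked motifs therefore do not stand for the other starts.
Slc3a2: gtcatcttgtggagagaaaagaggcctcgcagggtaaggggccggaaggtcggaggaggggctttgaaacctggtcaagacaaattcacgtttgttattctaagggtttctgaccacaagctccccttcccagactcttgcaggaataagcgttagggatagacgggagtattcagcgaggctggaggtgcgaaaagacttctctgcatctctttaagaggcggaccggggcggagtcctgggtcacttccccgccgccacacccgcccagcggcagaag
Slc7a8: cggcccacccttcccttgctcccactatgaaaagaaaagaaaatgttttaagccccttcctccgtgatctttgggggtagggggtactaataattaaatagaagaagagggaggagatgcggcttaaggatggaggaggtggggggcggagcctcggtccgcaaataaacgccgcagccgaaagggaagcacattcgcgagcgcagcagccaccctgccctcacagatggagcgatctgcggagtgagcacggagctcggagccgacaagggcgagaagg
Slc7a7: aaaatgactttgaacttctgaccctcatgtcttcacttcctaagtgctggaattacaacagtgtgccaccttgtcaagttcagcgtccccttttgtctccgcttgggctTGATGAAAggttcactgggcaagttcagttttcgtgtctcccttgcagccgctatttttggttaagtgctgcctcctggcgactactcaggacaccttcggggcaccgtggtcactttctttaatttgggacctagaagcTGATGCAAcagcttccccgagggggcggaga
Slc33a1: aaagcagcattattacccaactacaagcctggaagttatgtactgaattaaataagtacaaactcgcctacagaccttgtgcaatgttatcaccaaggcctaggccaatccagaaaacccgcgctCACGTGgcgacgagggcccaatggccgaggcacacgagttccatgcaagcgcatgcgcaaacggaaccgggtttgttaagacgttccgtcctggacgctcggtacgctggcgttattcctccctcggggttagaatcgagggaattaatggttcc
The motifs were searched on both strands, and none of them was required to be free of overlap with another. CACGTG, the core of the E-box bound by the MiT/TFE family and by Myc, was in the promoter of 19 of the 93 matched members (20.4%), against 12.9% of matched genes with a mean of at least 500 and 8.91% of all protein-coding genes with a promoter. Among all promoters in the table the share was 7.15%. Of the 19 members, Slc29a1, Slc33a1 and Slc39a8 were called lower in males and Slc27a1 higher, and the others were not called. TGATGNAA, the letters of the amino acid response element bound by Atf4, was found in 3 members (3.23%), Slc7a7, Slc9a9 and Slc50a1, against 2.61% at a mean of at least 500. TGACNNNGC, the antioxidant response element bound by Nfe2l2, was found in 21 members (22.6%), against 17.1%. These are matches of letters and no site was tested.

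In males, more carriers were lower on PLX3397 than higher. Of the 126 members, 31 passed the test (24.6%), 7 higher and 24 lower, where a call is a limma adjusted p under 0.05 over all genes tested. Of all 19594 genes tested 11.7% were called, 4.16% higher and 7.52% lower. Of the 8626 genes with a mean of at least 500, the level used to choose the members, 20.7% were called, 5.72% higher and 15% lower. The members' shares were 5.56% higher and 19% lower, near that background. Their median log2 fold change was -0.19, against -0.11 for genes at that level and 0.02 for all genes tested. The 4 libraries of each group did not overlap for 26 of the 31 calls and for 32 of all 126 members. That share over all genes was not counted. A 2-fold change was exceeded by 6 calls. Among them, Slc39a12, Slc25a35 and Slc1a5 fell short of a mean of 500 in some groups, so their place on the list leans on the groups where they were high. A change is given as a log2 fold change with its SE, computed on log2(value + 1), and a level as a normalised read count, with mean ± SD for n = 4.

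The split of male calls depended on how libraries were scaled. With equal library totals the median of all genes rose from 0.02 to 0.18, and the male calls became 12 higher and 16 lower. Quantile normalisation gave 10 higher and 19 lower, and upper-quartile scaling 8 higher and 22 lower. Without male control replicate 4 and male PLX3397 replicate 3, 20 members were called, 3 higher and 17 lower. Leaving out male control replicate 1 gave 21. The fall of the microglial markers (5 of 5 called lower in males), the rise of the neutrophil markers (6 of 6 called higher) and the fall of the border-associated macrophage markers (6 of 6 called lower) moved with these calls, and their part was not tested.

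In females, 11 members passed the test (8.73%), 3 higher and 8 lower, where 5.34% of all genes were called (2.67% higher and 2.67% lower). Of genes with a mean of at least 500, 9.24% were called, 4.56% higher and 4.68% lower. The 3 higher members were Slc39a4, Slc11a1 and Slc23a2. The groups did not overlap for any of the 11, nor for 19 of all 126 members, a share not counted over all genes. A 2-fold change was exceeded by 2 calls, Slc39a4 and Slc39a12, the second of which reached a mean of 500 in the control groups only. The median over the members was -0.02. Equal library totals gave 6 higher and 7 lower, quantile normalisation 4 higher and 7 lower, and a fit to the females alone 4 higher and 5 lower. Leaving out female control replicate 1 left 6 calls, and leaving out female control replicate 4, female PLX3397 replicate 1 or female PLX3397 replicate 2 left 7 each. In females, 4 of the 5 microglial markers and 4 of the 6 border-associated macrophage markers were called lower. Of the neutrophil markers 3 of 6 were called higher, as were 2 of 6 astrocyte markers. The part of these markers in the female calls was not tested.

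All 8 members that fell in females were also lower in males, which is 100% of the female and 33.3% of the male falls: Slc7a8, Slc7a7, Slc44a2, Slc39a12, Slc25a37, Slc25a45, Slc16a6 and Slc9a9. Slc39a4 was the single member called higher in both sexes. Of the 31 male calls, 29 had the same sign in females, the exceptions being Slc33a1 and Slc39a7, and 29 were larger in size in males. Picking genes by their male change favours a larger size in males, so this last count does not show a stronger male response. A total of 93 members were called in neither sex. The plot of female against male change places these groups.

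**Figure D1:**
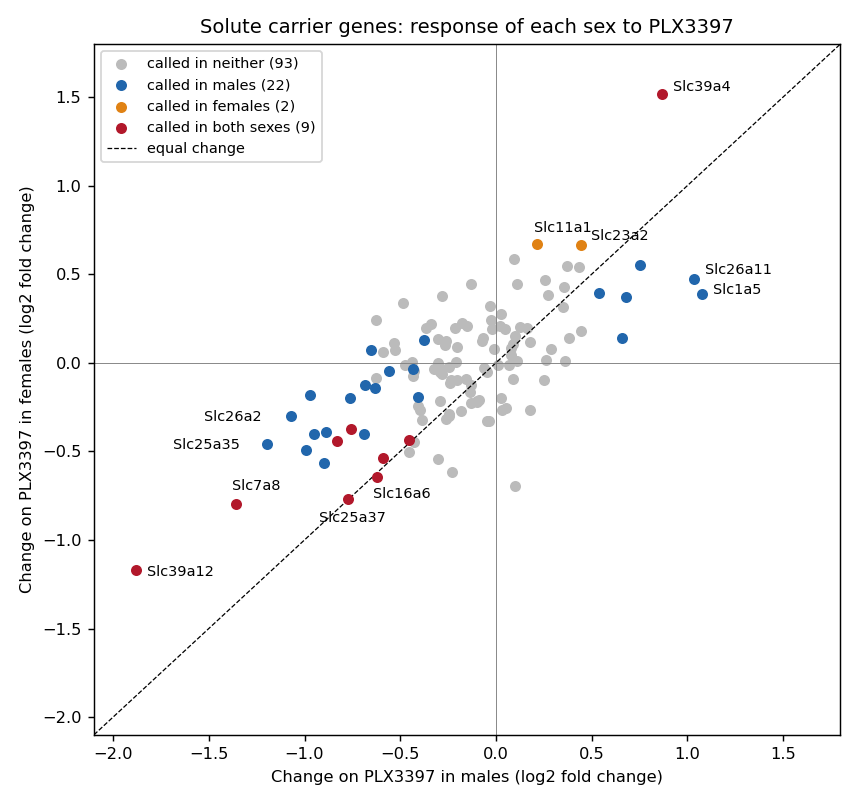
Change of each of the 126 solute carrier genes on PLX3397 in males (x axis) and females (y axis), both as log2 fold change, 1 point per gene coloured by the sex in which it was called; the dashed line marks equal change. Most of the 22 genes called in males alone lie closer to 0 on the female axis, which picking them by the male change favours. The 9 called in both sexes include Slc39a12 and Slc7a8 at the low end and Slc39a4 at the high end.

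The members fell into 14 classes by substrate, plus the 3 non-carriers. Classes were assigned by hand. A few members without a settled substrate, Slc10a3, Slc25a35, Slc25a45, Slc12a9 and Slc35a4, were classed by family. Calls were spread over 11 of the 14 classes in males. In males 31.2% of amino acid carriers, 28.6% of metal carriers and 22.2% of the Slc25 family were called, beside 20.7% of genes with a mean of at least 500. In females these shares were 12.5%, 14.3% and 7.41%, beside 9.24%. Each other class held at most 9 members, so single calls move its share far. No class was tested against the background. The classes without a male call were the 3 peptide carriers, the 9 carriers of sodium, potassium, calcium, magnesium and chloride and the 2 sugar carriers.

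**Figure D2:**
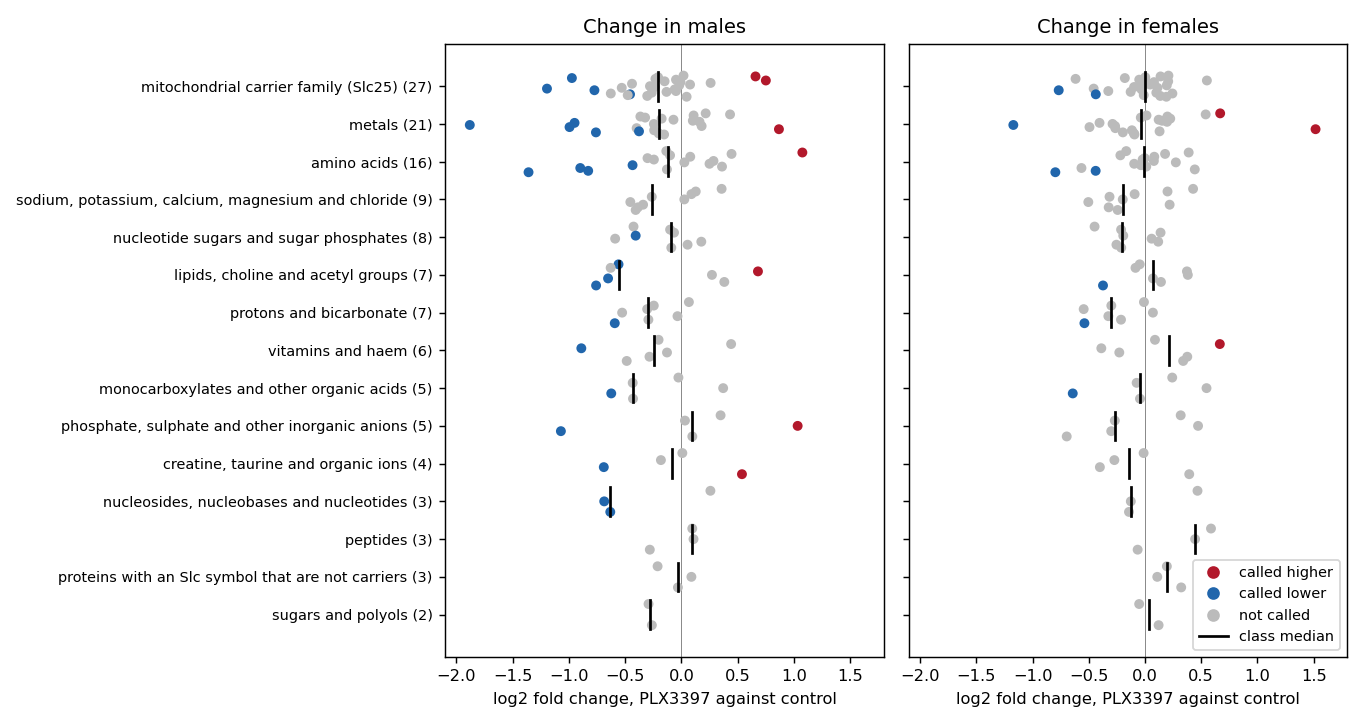
Change on PLX3397 in males (left) and females (right) for the members of each substrate class, with the number of members in brackets; each point is 1 gene, its x position is the log2 fold change, red and blue mark calls and the black bar is the class median. Calls are spread over most classes in males, and the largest falls belong to the metal carrier Slc39a12 and the amino acid exchanger Slc7a8.

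Of the 16 amino acid carriers, 1 rose and 4 fell in males, and 2 fell in females. Slc7a8, an exchanger of large neutral amino acids and the call with the smallest p-value, stood at 29070, 26450, 25430 and 27600 in male controls and at 12160, 9472, 9774 and 11060 in males on PLX3397. In females it stood at 32100, 27830, 35360 and 27520 on control chow and at 16860, 16410, 20780 and 16580 on PLX3397. Every PLX3397 library lay below every control library in both sexes. The change was -1.36 ± 0.104 in males (limma adjusted p = 4.72e-07) and -0.80 ± 0.104 in females (0.00018), and both calls held under all 27 alternatives.

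Slc7a7, the light chain that exports cationic amino acids in exchange for neutral ones, ran at 8076, 8056, 6637 and 8677 in male controls and 4466, 3873, 4416 and 4928 in males on PLX3397. Female values were 8918, 7257, 9412 and 7295 on control chow and 6046, 6521, 6027 and 5536 on PLX3397. The groups were again apart in both sexes, with changes of -0.83 ± 0.112 in males (limma adjusted p = 0.000109) and -0.44 ± 0.112 in females (0.0283). The female call ended under 7 of 27 alternatives, with adjusted p from 0.00733 to 0.0951, and with the replicate block it was 0.0564. By the GENCODE vM21 annotation, 7.0% of the exon bases of Slc7a7 lie over Oxa1l on the other strand, and whether counting used strand is not given.

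Their heavy chain Slc3a2 was at 21230, 21260, 21090 and 20070 in male controls and at 16790, 12820, 14500 and 18380 in males on PLX3397. The male groups did not overlap, and the change was -0.43 ± 0.127 (limma adjusted p = 0.0346). That call was the less secure, since it ended under 10 of 27 alternatives (adjusted p from 0.00722 to 0.147), among them both left-out libraries together (0.123). In females the means were 23120 ± 3800 on control chow and 22460 ± 2940 on PLX3397, and the groups overlapped.

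Slc7a5, the exchanger of large neutral and branched-chain amino acids, was at 2329, 2715, 1816 and 1881 in male controls and at 2250, 925.8, 1081 and 791.6 in males on PLX3397. Male PLX3397 replicate 1 lay inside the control range, and the other 3 lay below it. The change was -0.90 ± 0.249 in males (limma adjusted p = 0.0262, from 0.000275 to 0.0855 over the alternatives, 8 of which ended the call). Without the 2 libraries that stood apart it was 0.0793. In females the levels were 3743, 3276, 2988 and 3012 on control chow and 1871, 2169, 2783 and 2038 on PLX3397. Those female groups did not overlap, but the log2 fold change of -0.57 ± 0.249 did not pass (0.249).

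Slc1a5, which brings in glutamine and other small neutral amino acids, was the amino acid carrier that rose in males. Its levels were 390.8, 376.3, 359.6 and 423.3 in male controls and 781.1, 694.7, 1001 and 818.3 in males on PLX3397. All 4 PLX3397 libraries exceeded all 4 controls, a change of 1.08 ± 0.202 (limma adjusted p = 0.00193). In females the levels were 373, 343.7, 322.3 and 525.2 on control chow and 385, 603, 414 and 664 on PLX3397, which overlapped, and the log2 fold change of 0.39 ± 0.202 did not pass (0.357). Slc1a5 is 1 of the members whose mean fell short of 500 in some groups, so its place on the list leans on the PLX3397 libraries. Slc1a3, a glutamate carrier that is also on the astrocyte marker list, was at 10320 ± 904 and 9428 ± 1080 in males and 9715 ± 841 and 8801 ± 2010 in females on control chow and PLX3397. The remaining amino acid carriers without a male call ranged from -0.3 to 0.45.

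**Figure D3:**
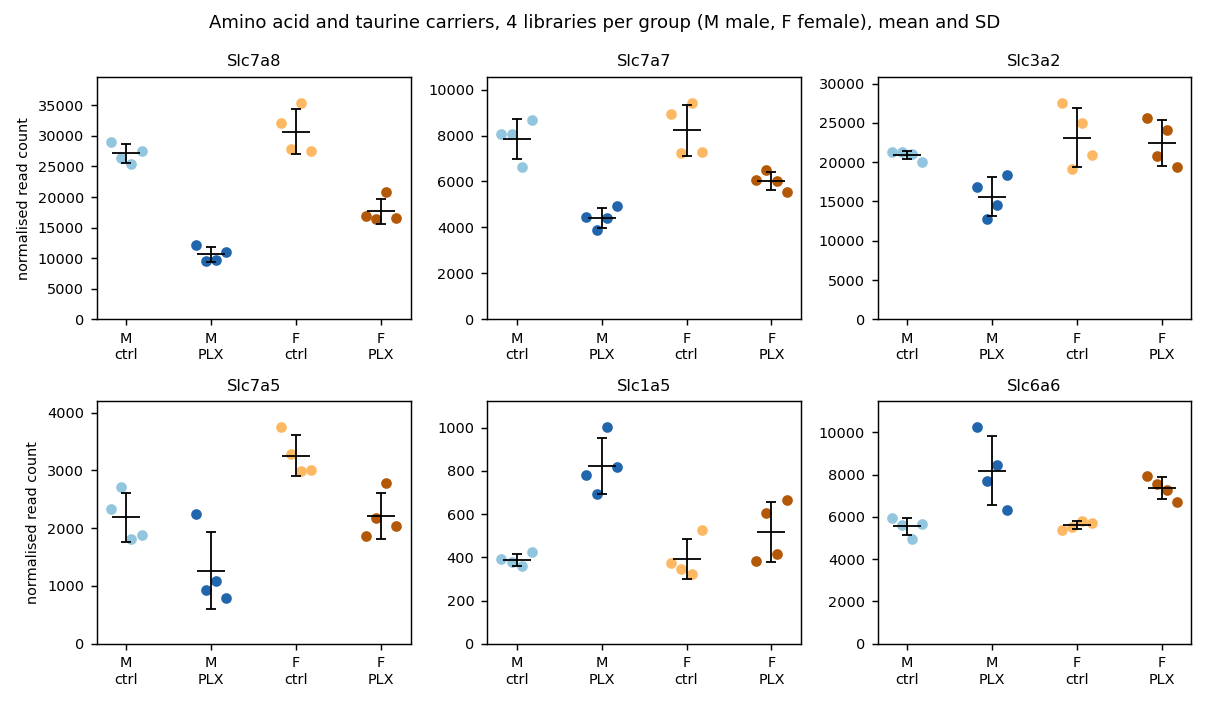
Normalised read counts of 5 amino acid carriers and the taurine carrier Slc6a6 in the 4 libraries of each group (M male, F female, ctrl control chow, PLX chow with PLX3397), with mean and SD as bars; each panel has its own y axis from 0. Slc7a8 and Slc7a7 are lower on PLX3397 in both sexes without overlap, and 1 male PLX3397 library of Slc7a5, at 2250, lies within the male control range.

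The 4 carriers of creatine, taurine and organic ions included 1 rise and 1 fall in males. Slc6a6, the taurine carrier, was at 5940, 5617, 4973 and 5686 in male controls and at 10230, 7718, 8437 and 6311 in males on PLX3397. The groups were apart, with a change of 0.54 ± 0.117 (limma adjusted p = 0.0057). Female levels were 5605 ± 183 on control chow and 7371 ± 506 on PLX3397, also without overlap, but the log2 fold change of 0.39 ± 0.117 missed the threshold (0.0646). Slc22a5, which takes up carnitine, went from 1030 ± 232 to 642.3 ± 154 in males (-0.69 ± 0.212, limma adjusted p = 0.045). This call ended under 19 of 27 alternatives, with an adjusted p of 0.138 without the 2 libraries that stood apart and a range from 0.0172 to 0.149.

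Of the 7 carriers of lipids, choline and acetyl groups, 3 fell and 1 rose in males. Slc44a2, a choline transporter-like protein, stood at 17620, 18070, 15640 and 13560 in male controls and at 10480, 9072, 10300 and 8423 in males on PLX3397. Female levels were 17900, 18700, 16560 and 19640 on control chow and 13220, 14310, 13020 and 15690 on PLX3397. No library of one group reached the range of the other in either sex. The changes were -0.76 ± 0.103 in males (limma adjusted p = 0.000113) and -0.37 ± 0.103 in females (0.044), the second of which ended under 13 of 27 alternatives (0.0228 to 0.128). Slc33a1, which carries acetyl-CoA into the endoplasmic reticulum, went from 1933 ± 266 to 1225 ± 106 in males (-0.65 ± 0.138, 0.00463) and stood at 1792 ± 295 and 1869 ± 175 in females. Slc10a3, a member of the bile acid carrier family, fell by 0.56 ± 0.169 in males (0.0415), where 12 of 27 alternatives ended the call and 12.8% of its exon bases are shared with Ubl4a on the same strand. Slc27a1, which imports fatty acids, rose in males from 2470 ± 397 to 3993 ± 910 (0.68 ± 0.185, 0.0235) and was 2918 ± 539 and 3785 ± 762 in females. Its male call ended without the 2 libraries that stood apart (0.0821, in a range from 0.00499 to 0.0855 over the alternatives).

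The 21 metal carriers held 6 male calls, 1 higher and 5 lower, all in the zinc importer family Slc39. That is 28.6%, beside 20.7% of genes with a mean of at least 500. Slc39a12, a zinc importer, reached a mean of 500 in the control groups only, so its place on the list leans on the control libraries. It stood at 883.9, 657.3, 863.1 and 770.4 in male controls and at 241, 205.3, 162.6 and 256.9 in males on PLX3397. In females it was 854.1, 1008, 628 and 722.2 on control chow and 184, 378.9, 612.4 and 353.1 on PLX3397. The highest female PLX3397 library came close to the lowest control without reaching it, and the changes were -1.88 ± 0.282 (limma adjusted p = 0.000276) and -1.17 ± 0.282 (0.0197). The female call ended under 4 of 27 alternatives (0.00312 to 0.0806).

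Slc39a8, a zinc and manganese importer, went from 1658 ± 145 to 985.3 ± 160 in males (-0.76 ± 0.169, limma adjusted p = 0.0066) and was 1679 ± 149 and 1497 ± 359 in females. Slc39a10, a plasma membrane zinc importer, was at 2067, 2433, 2118 and 2295 in male controls and at 1898, 1041, 1035 and 857.1 on PLX3397. Male PLX3397 replicate 1 was close to the controls and the other 3 lay far below, for a change of -0.95 ± 0.226 (0.0104), while females had a log2 fold change of -0.40 ± 0.226 (0.402). The male call of Slc39a10 ended without the 2 libraries that stood apart (0.068, in a range from 0.000779). Slc39a14, which imports zinc, iron and manganese, fell by 0.99 ± 0.288 in males (0.0335), and it had a log2 fold change of -0.49 ± 0.288 in females (0.427). Its male call ended under 10 of 27 alternatives, with an adjusted p of 0.1002 without the 2 libraries that stood apart and a range from 0.0135 to 0.112.

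Slc39a7, which releases zinc from the endoplasmic reticulum and Golgi, went from 11580 ± 895 to 8945 ± 1060 in males (-0.38 ± 0.102, limma adjusted p = 0.023), with groups that overlapped. Its call ended under 8 of 27 alternatives (0.0501 without the 2 libraries that stood apart, from 0.00689 to 0.29 over all). In addition, 80.7% of its exon bases are shared with the read-through model Gm20427 on the same strand, so its count is uncertain. Slc39a4, a zinc importer best known from the gut, rose in both sexes. Male levels were 637.9, 688.5, 1152 and 754.9 on control chow and 1891, 1135, 1171 and 1687 on PLX3397, which overlapped at a single control library. Female levels were 515.8, 706.3, 637.8 and 785.7 on control chow and 2264, 2578, 1338 and 1572 on PLX3397, fully apart. The female change of 1.52 ± 0.243 (0.000997) held under all 27 alternatives, while the male change of 0.87 ± 0.243 (0.0276) did not under 7, where adjusted p ranged from 0.009 to 0.088 and was 0.0551 with the replicate block and 0.0631 without the 2 libraries that stood apart.

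Slc11a1, the phagosomal carrier of iron and manganese, rose in females. Its levels were 19070, 16880, 19720 and 18300 in female controls and 37770, 39540, 20900 and 23740 in females on PLX3397. Replicates 1 and 2 were far above the other PLX3397 libraries, which themselves exceeded every control. The change was 0.67 ± 0.164 (limma adjusted p = 0.0222, from 0.00265 to 0.0898 over the alternatives), and without replicate 1 or replicate 2 of that group it missed the threshold (0.0805 and 0.0762). The summed neutrophil markers in those 4 libraries were 548.6, 613.3, 424.8 and 1651, against 0 to 6.01 in female controls, and their part in the result was not tested. In males the log2 fold change was 0.22 ± 0.164 (0.47). Slc11a2, which imports divalent metals across the plasma and endosomal membranes, had a log2 fold change of 0.43 ± 0.19 in males (0.172) and 0.54 ± 0.19 in females (0.13). Its female groups did not overlap, with 1872 to 2415 on control chow and 2683 to 4095 on PLX3397. The iron exporter Slc40a1 was at 13860 ± 405 and 12490 ± 1100 in males and 15810 ± 1280 and 15380 ± 4520 in females on control chow and PLX3397.

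**Figure D4:**
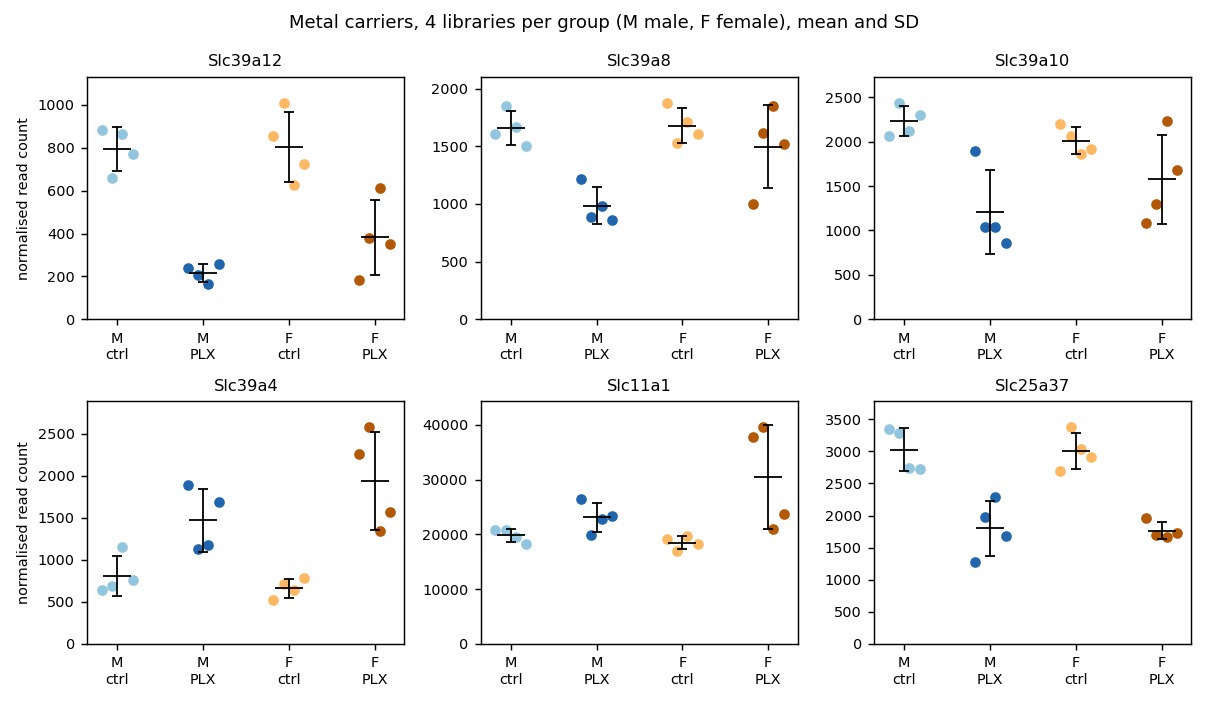
Normalised read counts of 5 metal carriers and the mitochondrial iron carrier Slc25a37 in the 4 libraries of each group (M male, F female, ctrl control chow, PLX chow with PLX3397), with mean and SD as bars; each panel has its own y axis from 0. Slc39a12 and Slc25a37 are lower on PLX3397 in both sexes, Slc39a4 is higher, and Slc11a1 has 2 female PLX3397 libraries, at 37770 and 39540, above all others.

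Of the 27 members of the Slc25 family, among them Slc25a17 of the peroxisome and Slc25a46 of the outer mitochondrial membrane, 2 rose and 4 fell in males, and 2 fell in females. Slc25a37, which brings iron into mitochondria, was at 3354, 3294, 2747 and 2723 in male controls and at 1280, 1978, 2284 and 1674 in males on PLX3397. Females had 2697, 3374, 3033 and 2920 on control chow and 1959, 1690, 1672 and 1733 on PLX3397. Both sexes showed groups apart and a change of -0.77 ± 0.152 (limma adjusted p = 0.00262 in males and 0.00531 in females). Slc25a45 was at 21520, 20020, 21500 and 17520 in male controls and at 14630, 13030, 16280 and 14740 on PLX3397. Female values were 19970, 18980, 22720 and 20590 on control chow and 13640, 15030, 15190 and 16930 on PLX3397. Changes were nearly equal in the sexes, -0.46 ± 0.0926 (0.00339) in males and -0.44 ± 0.0926 (0.00869) in females, and both genes' calls held under all 27 alternatives.

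Slc25a12, the aspartate and glutamate exchanger of the malate-aspartate shuttle, was at 1622, 1428, 1223 and 1291 in male controls and at 782.1, 721.7, 890.7 and 487.9 in males on PLX3397. The groups were apart (-0.97 ± 0.222, limma adjusted p = 0.00774), and the female means were 1370 ± 307 and 1225 ± 311. Slc25a35, which reached a mean of 500 in the control groups only, fell by 1.20 ± 0.333 in males (0.0271) and Slc25a10, the dicarboxylate carrier, rose by 0.66 ± 0.203 (0.0453). These calls ended under 6 and 15 of 27 alternatives. Without the 2 libraries that stood apart the adjusted p of Slc25a10 was 0.2005, the top of a range from 0.0139. Of Slc25a35, 31.3% of the exon bases lie over Rangrf on the other strand. The ADP/ATP carrier Slc25a5 was at 18420 ± 1070 and 15120 ± 3080 in males and at 18910 ± 2770 and 20610 ± 950 in females. The 21 Slc25 family members without a male call ranged from -0.63 to 0.26.

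Among the 5 carriers of monocarboxylates and other organic acids, Slc16a6 fell in both sexes. It is known as a ketone body carrier, and its levels were 11600, 11180, 10440 and 10760 in male controls and 7730, 7199, 6756 and 6878 on PLX3397. Female levels were 12360, 9910, 12130 and 10420 on control chow and 6948, 7749, 7489 and 6459 on PLX3397. The groups were well apart and the changes alike in size, -0.62 ± 0.0895 (limma adjusted p = 0.00019) and -0.64 ± 0.0895 (0.000308), and they held under all 27 alternatives. On the other strand, 21.5% of its exon bases lie over Amz2. The lactate carriers were not called: Slc16a3 had a log2 fold change of 0.37 ± 0.186 in males (0.241) and 0.55 ± 0.186 in females (0.114). The female groups of Slc16a3 did not overlap, with 2124 to 2669 on control chow and 2979 to 4076 on PLX3397. Slc16a1 was at 1114 ± 254 and 1107 ± 327 in males and 1154 ± 361 and 1325 ± 194 in females.

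Of the 3 carriers of nucleosides and nucleotides, both equilibrative nucleoside transporters fell in males. Slc29a3, which works in the lysosome, was at 30510, 29700, 28950 and 28590 in male controls and at 21300, 16720, 18560 and 19670 on PLX3397. Slc29a1, at the plasma membrane, was at 11320, 11030, 9712 and 11530 in male controls and at 8773, 5291, 6755 and 6654 on PLX3397. The groups were apart for both, with changes of -0.63 ± 0.0881 (limma adjusted p = 0.000142) and -0.69 ± 0.13 (0.00202), and both calls held under all 27 alternatives. In females neither was called, with log2 fold changes of -0.14 ± 0.0881 for Slc29a3 (0.461) and -0.13 ± 0.13 for Slc29a1 (0.708).

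The 8 carriers of nucleotide sugars and sugar phosphates held 1 call, that of Slc35a4, which was classed by family. Slc35a4 was at 4747 ± 511 and 3575 ± 299 in males (-0.41 ± 0.122, limma adjusted p = 0.0403). That call ended under 11 of 27 alternatives (0.235 without the 2 libraries that stood apart, from 0.0148 to 0.286 over all). Slc37a2, a sugar phosphate exchanger of the endoplasmic reticulum, was at 8650 ± 446 and 9852 ± 1510 in males. None of the 3 peptide carriers was called in either sex. The lysosomal histidine and peptide carrier Slc15a4 had a log2 fold change of 0.45 ± 0.131 in females (0.061), with control libraries at 6994, 5934, 7462 and 6848 and PLX3397 libraries at 7470, 9903, 9351 and 10540. Those groups did not overlap, by a narrow margin between 7462 and 7470. Its relative Slc15a3 had a log2 fold change of 0.59 ± 0.24 in females (0.207), with 28.1% of its exon bases over Tmem132a on the other strand.

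Among 5 carriers of inorganic anions, the sulphate carriers Slc26a2 and Slc26a11 changed in opposite directions in males. Slc26a2 was at 2899, 3179, 3384 and 3416 in male controls and at 1719, 1514, 952.1 and 2201 on PLX3397. Slc26a11 was at 671.6, 833.8, 560.5 and 405.5 in male controls and at 1161, 1068, 1748 and 1036 on PLX3397. Neither pair of groups overlapped, and the changes were -1.07 ± 0.203 (limma adjusted p = 0.00201) and 1.03 ± 0.244 (0.0099). The call of Slc26a11 ended without male control replicate 4 and male PLX3397 replicate 3, where the change was 0.68 (0.103, in a range from 0.00379). In females Slc26a2 had a log2 fold change of -0.30 ± 0.203 (0.511).

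Of the 7 carriers of protons and bicarbonate, the endosomal sodium/proton exchanger Slc9a9 fell in both sexes. Male levels were 8989, 10300, 10920 and 9351 on control chow and 6488, 6182, 6783 and 6721 on PLX3397. Female levels were 12200, 10470, 11480 and 11590 on control chow and 9816, 7171, 5816 and 9326 on PLX3397, with a wider spread. The groups were apart in both, with changes of -0.59 ± 0.132 (limma adjusted p = 0.00674) and -0.54 ± 0.132 (0.0223), and the calls ended under 1 and 6 of 27 alternatives. No carrier of sodium, potassium, calcium, magnesium or chloride was called in either sex: their log2 fold changes ran from -0.45 to 0.36 in males and from -0.5 to 0.43 in females. Among them, the sodium, potassium and chloride cotransporter Slc12a2 had a log2 fold change of 0.36 ± 0.211 in males (0.332) and 0.43 ± 0.211 in females (0.323), and Slc12a9 stood between 9731 ± 828 and 11150 ± 669 in all 4 groups.

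The 6 vitamin and haem carriers held 1 fall in males and 1 rise in females. Slc46a1, which takes up folate with protons, was at 9372, 9573, 9620 and 9009 in male controls and at 5349, 3979, 4587 and 6755 on PLX3397. The groups were far apart (-0.89 ± 0.168, limma adjusted p = 0.00201), and the call held under all 27 alternatives. The female log2 fold change was -0.39 ± 0.168 (0.239). Slc23a2, the ascorbate carrier, was at 5928, 5755, 5940 and 4238 in female controls and at 11370, 8426, 7856 and 7215 in females on PLX3397. It was higher in every female PLX3397 library (0.67 ± 0.182, 0.0418), though 13 of 27 alternatives ended the call (0.018 to 0.135). In males it had a log2 fold change of 0.44 ± 0.182 (0.142).

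No member's response differed between the sexes by the test of the difference itself. Of the 126 members 0 were called, as were 0 of all 19594 genes tested (0%), and the lowest adjusted p of a member was 0.213 by limma. At an unadjusted p under 0.05 there were 21 members (16.7%), against 10.3% of all genes and 15.1% of genes with a mean of at least 500. Of these, 20 had a female response above the male one, a count not made for other genes. So did 85 of the 126 members, beside 5671 of the 8626 genes with a mean of at least 500 and 9956 of all 19594 genes. The median of the difference over the members was 0.15, against 0.13 for genes at that level. It was 0.05 with upper-quartile scaling, 0.05 with quantile normalisation and -0.01 with equal library totals, so its sign turned under the last of these. A change called in 1 sex and not in the other, such as that of Slc29a3, Slc1a5 or Slc11a1, was therefore not shown to differ between them.

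On control chow, no member was called between females and males, and 13 of all genes tested were (0.0663%, or 0.104% of genes with a mean of at least 500). The groups of 2 members did not overlap there. Slc7a5 was at 1816 to 2715 in males and 2988 to 3743 in females, and Slc12a9 at 9673 to 10230 and 10400 to 11910. At an unadjusted p under 0.05 there were 2 members (1.59%), against 5.19% of all genes, and the lowest adjusted p of a member was 0.946 by limma.

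On PLX3397, 13 members differed between the sexes (10.3%), and all 13 were higher in females. Of all genes 5.43% were called, 4.28% higher and 1.15% lower in females. Genes with a mean of at least 500 were called in 10.4% of cases, 9.36% higher and 1.01% lower in females, and the members' share was near that background. They were Slc7a8, Slc7a7, Slc7a5, Slc3a2, Slc38a10, Slc44a2, Slc33a1, Slc39a7, Slc30a5, Slc25a5, Slc29a1, Slc29a3 and Slc52a2, and 9 of them had also been called lower in the male response. These comparisons share the male PLX3397 libraries. The groups of Slc7a5 were already apart between the sexes on control chow, and on PLX3397 they overlapped. The light chain Slc7a6, also a member, was not among them, at 673.7 ± 184 in males and 1108 ± 459 in females on PLX3397 (limma adjusted p = 0.174). Slc7a8 was higher by 0.73 ± 0.104 (limma adjusted p = 0.0025) and held under all 27 alternatives. Slc52a2, a riboflavin carrier, had the next smallest p-value, with levels of 1384, 1226, 1471 and 1329 in males on PLX3397 and 2430, 1928, 2562 and 2373 in females on PLX3397. The groups were apart and the difference was 0.78 ± 0.127 (0.00543). Its call ended under 1 of 27 alternatives, the fit to the groups compared alone (0.0539). Within each sex it was not called, with log2 fold changes of -0.28 ± 0.127 in males (0.182) and 0.38 ± 0.127 in females (0.111). Slc44a2 (0.56 ± 0.103, 0.00822) and Slc33a1 (0.61 ± 0.138, 0.0205) followed, and their calls ended under 3 and 8 of 27 alternatives. Slc30a5, which loads zinc into the secretory pathway, differed by 0.52 ± 0.132 (0.032), a call that ended under 10 of 27 alternatives.

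Apart from that of Slc7a8, each call between the sexes on PLX3397 was lost under at least 1 alternative, among them other scalings and left-out libraries. With equal library totals the median over all genes moved from -0.02 to -0.22, and 3 members were called, 2 higher and 1 lower in females. Quantile normalisation also gave 2 higher and 1 lower, and upper-quartile scaling 3 higher and 1 lower. Without male PLX3397 replicate 2, or without replicate 3, 3 members were called. Without female PLX3397 replicate 2 or replicate 3 there were 8 and 7. Without the 2 libraries that stood apart there were 3. All 13 named members kept a positive difference under each of these scalings. All 5 microglial markers were also called higher in females than in males on PLX3397, and all 6 neutrophil markers were called lower (median log2 difference -4.38). The part of both lists in the result was not tested.

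**Figure D5:**
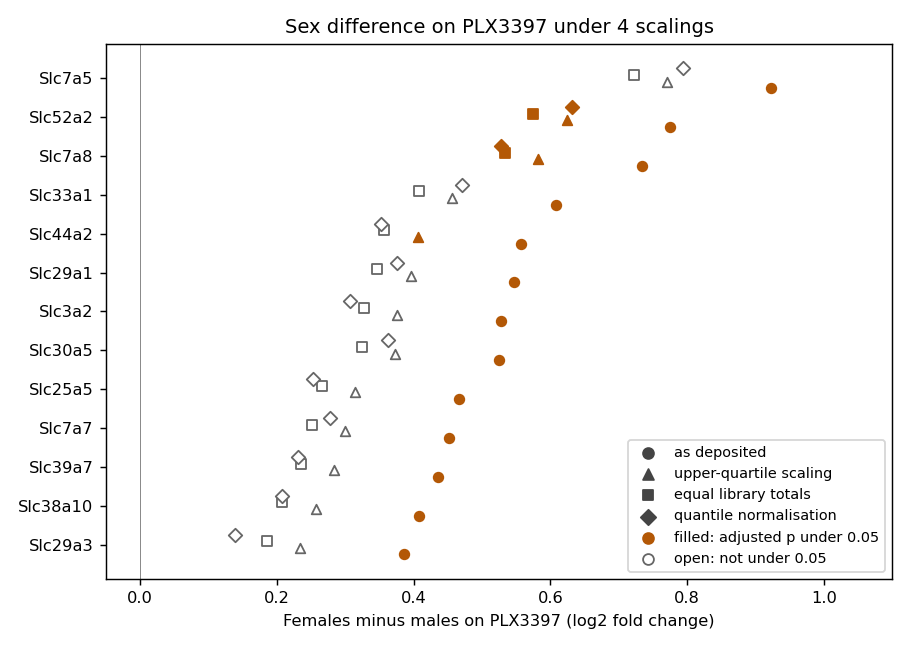
Difference between females and males on PLX3397 (log2 fold change, x axis) for the 13 members called with the values as deposited, under that and 3 other scalings of the libraries; filled symbols have an adjusted p under 0.05. Every difference lies above 0, and those of Slc7a8 and Slc52a2 stay under the threshold in all 4 scalings.

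Other genes of transport and of the pathways that carriers feed were counted from lists chosen with earlier results known. Of 21 tested genes listed with the carrier superfamily but without an Slc symbol, 1 was higher and 7 lower in males. In females, 1 was higher and 3 lower. That is 38.1% and 19% called, where 20.7% and 9.24% of genes with a mean of at least 500 and 11.7% and 5.34% of all genes were called in males and females. Slco2b1, an importer of organic anions, changed by -1.13 ± 0.102 in males (limma adjusted p = 2.34e-06) and -0.68 ± 0.102 in females (0.000637). Slco4a1, of the same family, changed by -2.37 ± 0.272 (2.37e-05) and -2.40 ± 0.272 (4.46e-05). Mpc1, a subunit of the mitochondrial pyruvate carrier, changed by -0.72 ± 0.12 (0.000713) and -0.45 ± 0.12 (0.0379). Mfsd12, which is needed for the import of cysteine into lysosomes, was higher, by 1.18 ± 0.208 (0.00111) and 0.88 ± 0.208 (0.0178).

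Of 10 tested ancillary subunits and kinases, 2 were lower in males. In females 1 was higher and 1 lower. The male share of 20% was near the 20.7% of genes with a mean of at least 500, and the female share was 20% against 9.24%. The kinase Sgk1, which regulates several carriers, changed by -0.85 ± 0.127 in males (limma adjusted p = 0.000254) and -0.63 ± 0.127 in females (0.00609). Among 22 genes of amino acid sensing at the lysosome, 4 were higher and 1 lower in males, and 1 was higher in females. These shares, 22.7% and 4.55%, stand beside the same 20.7% and 9.24%. Fnip2, a partner of folliculin, was higher in both sexes, by 1.43 ± 0.182 (6.19e-05) and 0.81 ± 0.182 (0.0124). Rragd, a Rag GTPase, was higher in males by 2.61 ± 0.56 (0.0051).

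Metal handling genes beside the carriers gave 5 higher and 0 lower of 16 tested in each sex (limma adjusted p under 0.05), a share of 31.2% where 5.72% of genes with a mean of at least 500 were higher in males and 4.56% in females. The list was chosen with earlier results of these libraries known, so the count is no independent evidence of direction. The ferritin heavy chain Fth1 was higher by 1.16 ± 0.113 in males (4.82e-06) and 1.17 ± 0.113 in females (8.54e-06), and the light chain Ftl1 by 1.16 ± 0.153 (8.24e-05) and 1.11 ± 0.153 (0.000282). The metallothionein Mt1, which binds zinc, was higher by 1.34 ± 0.172 (6.52e-05) and 1.09 ± 0.172 (0.000887).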

How the data were processed

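RNA from sorted cortical microglia was sequenced in 16 libraries, 4 per group, all used. Per the labels' protocols, libraries were made by Nextera XT from 150 pg of cDNA, which a low-input SMARTer kit had amplified from 500 pg of total RNA. The deposited table holds a signal per gene and library, normalised read counts made by the authors. The submitters' processing notes name, without roles, the build GRCm39, Salmon 1.5.2, featureCounts 2.0.1, Subread, STAR 2.7.9a and bcl2fastq 2.19.1, and the formula of the normalisation is not given in the sources used here. Low values were not whole multiples of 1 step, so reads were not recovered and no count model was used. Depth behind each value is therefore unknown, and precision is given as SD and SE. No label says that a group's 4 samples came from separate animals, so p-values measure the spread between these samples, which may be technical.

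Symbols and biotypes came from Ensembl-based tables of build GRCm38 for 51029 of 53850 identifiers, and no coordinates of members are printed from the deposited table. Genes with at least 10 in at least 4 libraries (19594, among them all 126 members) were fitted in limma 3.58.1 (R 4.3.3) on log2(value + 1), with a trend on intensity, 1 mean per group, two-sided tests and Benjamini-Hochberg adjustment over all genes. Figures used matplotlib 3.10.9 in Python 3.11.15. The procedure was tested on simulated data for the male response, with changes planted in genes with a mean of at least 500. It called 30 of 100 planted 1.5-fold changes, 79 of 100 planted 2-fold changes and 3 of 8426 genes without a planted change. In that test a change of 1.5-fold was missed more often than called. The test held 100 planted changes of each size among 18859 genes, while 2289 of 19594 genes were called in the male response. Whether its shares hold for the deposited values was not tested. Correlations between libraries with the same replicate number did not show that the samples were paired. No 2 libraries were identical.

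The members, classes, marker and pathway lists, motifs, tests and alternatives were chosen with earlier results of these data known. Genes were named by a rule: per class, those with the smallest p in each response and the highest levels, every member called in a comparison of the sexes, and a short list of well-known carriers. Slc7a6, Slc39a14, Slc25a35 and Slc25a10 are named besides, chosen after their values were seen. The values of 1 called member and of 1 marker gene are not reported here, and the marker is left out of its list's sums and counts. Alternatives were other pseudocounts, filters and scalings, array weights, a replicate block, a fit to the groups compared alone, other levels for membership and libraries left out.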

Additional observations from a re-analysis of the deposited data

Results flagged for a closer look

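Among 47 members named, each group of 4 libraries was searched for a single library far from the other 3, which chance alone gives in about 1 of 20 groups. Of 188 groups, 9 had one. Slc7a8 was highest in female PLX3397 replicate 3 at 20780, with the other 3 at 16410 to 16860. Slc3a2 was lowest in male control replicate 4 at 20070, against 21090 to 21260, and Slc10a3 was lowest in the same library at 1691, against 2528 to 2667. Male PLX3397 replicate 1 was highest for Slc39a7 at 10530, against 8306 to 8548, and for Slc12a2 at 10300, against 6218 to 6784. Female control replicate 4 was highest for Slc25a12 at 1829, against 1181 to 1248, and lowest for Slc23a2 at 4238, against 5755 to 5940. Slc25a10 was highest in male control replicate 2 at 1229, against 807.2 to 867.6, and Slc15a3 was lowest in female control replicate 2 at 1388, against 2042 to 2137.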

How the results depend on the processing

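Of the calls of single members named here, 16 of 30 in males, 5 of 11 in females and 1 of 13 between the sexes on PLX3397 passed under all 27 alternatives, the rest were lost under at least 1, and 0 changed sign. Left-out libraries gave 21 to 32 calls in males, 6 to 13 in females, 3 to 17 between the sexes on PLX3397, and 0 to 0 for the difference between responses and for the sexes on control chow. Without male control replicate 4 and male PLX3397 replicate 3 together there were 20 calls in males and 3 between the sexes on PLX3397. In that last comparison 8 members were called with no filter on low values, 4 with upper-quartile scaling, 3 with equal library totals, 3 with quantile normalisation and 1 with a fit to the groups compared alone, against 13. The cause was not tested, except that leaving libraries out or fitting groups alone uses fewer samples.

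With the replicate number as a block, 29 members were called in males, 9 in females, 11 between the sexes on PLX3397 and 0 in the other comparisons. Over 24 pairs of same-numbered libraries the correlation of deviations ran from -0.0446 to 0.115, with 1 over 0.1. Of 16 libraries, 2 correlated best with their own number. Pairing by number was therefore not shown, though such correlations cannot exclude a small effect shared by same-numbered libraries. The difference between responses has no fit to the groups compared alone, since it uses all 4 groups.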
